A study of Mus musculus with 10 samples.

Results

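Numb and the core of the Notch pathway are described here in RNA recovered with Musashi proteins from mouse pituitary. The set holds 10 genes, chosen by name from the 55416 genes of the count table and matched by Ensembl gene ID: the adaptors Numb and Numbl, the receptors Notch1, Notch2 and Notch3, the ligands Jag1, Jag2 and Dll1, the ubiquitin ligase Mib1 and the co-activator Maml1. All 10 were among the 20550 genes with enough counts to be tested. In each of the 5 experiments, the lysate of 6 pituitaries was divided equally between a Musashi immunoprecipitation (IP), made with Musashi1 and Musashi2 antibodies pooled, and a control rabbit IgG. The mice were sighted FVB animals (FVB.129P2‐Pde6b+Tyrc‐ch/Ant) aged 8 to 10 weeks, described as controls, with no further genetic change or treatment named. Lysates 2, 5 and 6 were female and lysates 3 and 7 male, which gave 5 Musashi IP and 5 IgG libraries. Since the antibodies were pooled, Musashi1 and Musashi2 cannot be told apart, and since each lysate pools whole glands, neither animals nor cell types are separated. Input RNA was not analysed here, so a higher value in the IP is a recovery relative to IgG.

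Notch receptors are activated when a Jagged or Delta-like ligand on a neighbouring cell pulls on them. Cleavage by ADAM proteases and gamma-secretase then frees the intracellular domain, which joins the DNA-binding protein RBPJ and a Mastermind-like co-activator on target genes. Mindbomb 1 (Mib1) ubiquitinates ligands so that they can be taken up and pull, and Numb, an endocytic adaptor passed unequally to daughter cells in flies and mammals, opposes the receptor. Musashi proteins bind short UAG-containing motifs, and the mouse Numb mRNA is the classic target whose translation Musashi1 represses in neural progenitors. In the pituitary, Notch signalling is known from progenitor cells and from the development of hormone lineages.

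Depth ran from 8.74 to 13.0 M counts in Musashi IP libraries and from 6.67 to 9.35 M counts in IgG libraries. CPM are counts per 1 M counts of the library, after TMM scaling. Pituitary hormone genes summed to between 14290 and 39676 CPM in Musashi IP libraries and between 12960 and 51216 CPM in IgG libraries. Lhb, a gonadotroph hormone gene, was at 0 in all 10, while Fshb, another, had 137 to 9816 counts per library. Whether the 0 of Lhb comes from the read counting, whose rules are not given, was not tested. The IgG library of lysate 2 stood apart. Its summed endothelial markers reached 371 CPM and its mural and fibroblast markers 472 CPM, against at most 152 and 131 CPM in the other IgG libraries. The Musashi IP library of lysate 2 had 74.5 and 115 CPM, the lowest sums of the IP libraries. Notch3 and Jag1, highest in the IgG library of lysate 2, are given below also without that lysate.

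Of the 10 genes, 4 were higher in the Musashi IP than in IgG and 0 were lower, in edgeR's quasi-likelihood test with the lysate as a block and an adjusted p of 0.05 or less over all genes tested. These were Maml1, Mib1, Numb and Notch2, which stand at the intracellular, transcriptional and ligand-handling steps and at 1 of the receptors. Numbl, Notch1, Notch3 and all 3 ligands did not pass. Across all genes tested, 18.5% were higher and 8.4% lower (26.9% in either direction), and among protein-coding genes 25.7% were higher and 4.01% lower. The median log2 fold change was 0.069 over the 10 genes, −0.066 over all genes tested and 0.089 over the protein-coding genes tested. With 10 genes, 4 calls against a background of 25.7% are no result about the set, and the values of single genes are what follows. At an unadjusted p under 0.05 there were 5 genes, the 4 above and Notch1, which was lower, where 8653 of the 20550 genes tested were, and DESeq2 and limma-voom also called 0 of the 10 lower. All 4 calls held without lysate 2. With library totals in place of TMM factors the median of all genes shifted by −0.18, and the split of all calls was 3153 higher and 4068 lower, against 3804 and 1727 with TMM.

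**Figure D1:**
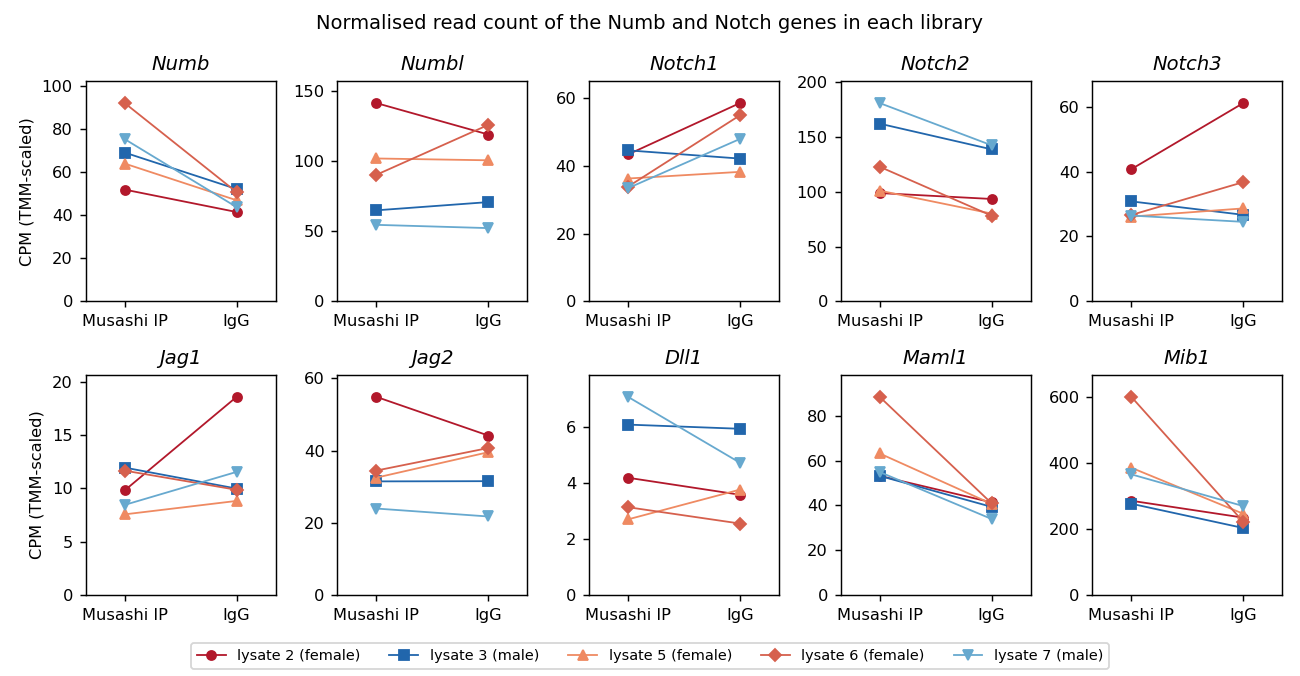
CPM (TMM-scaled, vertical axis from 0) of each of the 10 genes, with Musashi IP left of IgG and a line joining the libraries of a lysate. All 5 lines are higher at the Musashi IP end for Numb, Notch2, Maml1 and Mib1, and the groups do not overlap for Maml1 and Mib1.

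Numb (ENSMUSG00000021224), the endocytic adaptor, had 51.8, 68.9, 63.8, 91.9 and 75.2 CPM in the Musashi IP of lysates 2, 3, 5, 6 and 7, against 41.4, 52.0, 46.8, 50.6 and 43.7 CPM in IgG. Every IP library was above its own IgG partner, and the groups touched only where the lowest IP value fell just under the highest IgG value. The means were 70.3 ± 14.8 CPM in the IP and 46.9 ± 4.49 CPM in IgG (SD, n = 5 each), a 1.48-fold difference (log2 0.57 ± 0.11 SE, edgeR adjusted p = 0.00941). Without lysate 7 the log2 value was 0.44 and the call was lost (adjusted p = 0.0589). After a correction for exon length and GC content it was 0.32 and still passed.

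Numb's longest annotated 3′ UTR, of transcript Numb-204 in GENCODE M21, is 1405 nt long and holds 4 matches to a Musashi motif, a G or A followed by 1 to 3 T and then AGT. The words searched were thus GTAGT and ATAGT and the forms of each with 1 or 2 further T before the AG, on the sense strand only, and matches may overlap. The windows of 26 nt around them are shown because Numb is the textbook Musashi target. Capitals mark the motif, the last window holds 2 overlapping matches, and positions count from the first base after the stop codon.
Numb, 502 to 506: cagtagagctGTAGTctggggataaa
Numb, 617 to 621: aatattttaaATAGTtctcaatatta
Numb, 840 to 847: agtcactagGTAGTAGTtttaataag
A match is a description of the letters. Among the 2119 tested protein-coding genes with a UTR within 20% of this length, 86.2% held at least 1 match. As many matches as Numb or more were held by 26.6%.

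Numbl (ENSMUSG00000063160), the paralog of Numb, showed no difference that passed. Its values were 142, 65.0, 102, 90.4 and 54.7 CPM in the Musashi IP and 119, 70.9, 101, 126 and 52.3 CPM in IgG, in the same order of lysates. The IP library was the higher of the pair in 3 lysates and the lower in the other two, and the groups overlapped almost fully (log2 −0.055 ± 0.12, adjusted p = 0.741). Its 3′ UTR of 732 nt held 0 matches, and 63.8% of the 1524 genes with UTRs of similar length held at least 1. Set against each other within a lysate, the log2 ratio of Numb exceeded that of Numbl in 5 of 5 lysates, by 0.073 to 1.34, with a mean difference of 0.62 ± 0.47 (SD). The exact two-sided sign-flip permutation test gave p = 0.0625 (0.104 adjusted over the 5 gene pairs compared), and 0.0625 is the smallest p that 5 lysates allow.

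Maml1 (ENSMUSG00000050567) encodes a Mastermind-like co-activator that completes the nuclear Notch complex. It had 53.2, 53.2, 63.2, 88.4 and 54.9 CPM in the Musashi IP, against 41.4, 39.4, 40.7, 40.9 and 34.0 CPM in IgG. Every IP library lay above every IgG library, which was so for 9.7% of all genes tested and 13.6% of the protein-coding ones. The difference was 1.57-fold (log2 0.65 ± 0.12, adjusted p = 0.00824), with means of 62.6 ± 15.0 CPM in the IP and 39.3 ± 3.07 CPM in IgG. It passed under every alternative scaling, filter, tool and left-out lysate tried, and the log2 value was 0.35 after a length and GC correction.

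The 3′ UTR of transcript Maml1-202 is 3168 nt long yet holds only 2 motif matches, shown because this gene had the fewest matches per kilobase of the 4 genes that were higher.
Maml1, 201 to 205: cctagcccagATAGTtgcccagcccc
Maml1, 979 to 985: gttttcagtGTTTAGTcatcttatat
Of the 1755 genes with UTRs of similar length, 93.8% held as many matches or more. The transcript with the longest coding sequence, Maml1-201, has a 3′ UTR of 2215 nt with 1 match.

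Mib1 (ENSMUSG00000024294), the ubiquitin ligase that acts on Notch ligands, was the most abundant of the 10. Its values were 286, 277, 387, 602 and 367 CPM in the Musashi IP and 235, 204, 247, 223 and 270 CPM in IgG. No IP library fell as low as any IgG library, and the IP of lysate 6 stood highest by a wide margin. The means were 384 ± 131 CPM in the IP and 236 ± 25.1 CPM in IgG (log2 0.65 ± 0.16, 1.57-fold, adjusted p = 0.0194). Without lysate 5 the log2 value was the same to 2 decimals, and the call was lost (adjusted p = 0.0763). Its 3′ UTR, at 6453 nt the longest of the set, held 18 motif matches, while the 460 genes with UTRs of similar length held a median of 14.

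Among the receptors, Notch2 (ENSMUSG00000027878) had 98.9, 162, 101, 123 and 181 CPM in the Musashi IP, against 93.5, 139, 80.2, 78.2 and 143 CPM in IgG. The IP library was the higher of each pair, although the spread between lysates was larger than the gap within them and the groups overlapped widely. The mean was 133 ± 36.9 CPM in the IP and 107 ± 31.7 CPM in IgG, a 1.25-fold difference (log2 0.33 ± 0.10, adjusted p = 0.0458). This call lies at the threshold. It was lost in an unpaired fit (adjusted p = 0.379), after the length and GC correction (log2 0.092, adjusted p = 0.438), and in the other settings listed under the processing.

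Notch1 (ENSMUSG00000026923) had 43.4, 44.6, 36.3, 33.9 and 33.4 CPM in the Musashi IP and 58.6, 42.2, 38.3, 55.0 and 48.0 CPM in IgG. The IP value was the lower in 4 lysates and the higher in lysate 3 (log2 −0.33 ± 0.13, adjusted p = 0.0898). The gene passed as lower under library totals (log2 −0.51, adjusted p = 0.0298), under a 2 CPM filter, without lysate 3 and with length and GC corrected. Without lysate 2 it was at −0.26 (adjusted p = 0.236). Its 3′ UTR of 1628 nt held 4 motif matches, as many as that of Notch2, which is 2917 nt long.

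Notch3 (ENSMUSG00000038146), the receptor known from mural cells of vessels, had 40.8, 30.8, 26.1, 26.6 and 26.5 CPM in the Musashi IP and 61.2, 26.7, 28.7, 36.8 and 24.5 CPM in IgG. The highest value was in the IgG library of lysate 2, where mural and fibroblast markers were also highest. In the Musashi IP of that lysate these markers were lowest of the IP libraries (115 CPM). The cause was not tested. The fold change did not pass (log2 −0.18 ± 0.14, adjusted p = 0.345), and without lysate 2 it was −0.025. It passed as lower only after the length and GC correction, at −0.46 (adjusted p = 0.0409).

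The log2 ratio of Notch2 was above that of Notch1 in 5 of 5 lysates, and the difference, Notch1 minus Notch2, was −0.66 ± 0.46. It was also above that of Notch3 in 5 of 5, by a mean of 0.50 ± 0.42. Each of these had an exact permutation p of 0.0625 (0.104 adjusted), again the smallest that the design allows. Notch1 and Notch3 differed by −0.16 ± 0.30 (exact permutation p = 0.375, 0.469 adjusted), with both signs among the lysates.

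**Figure D2:**
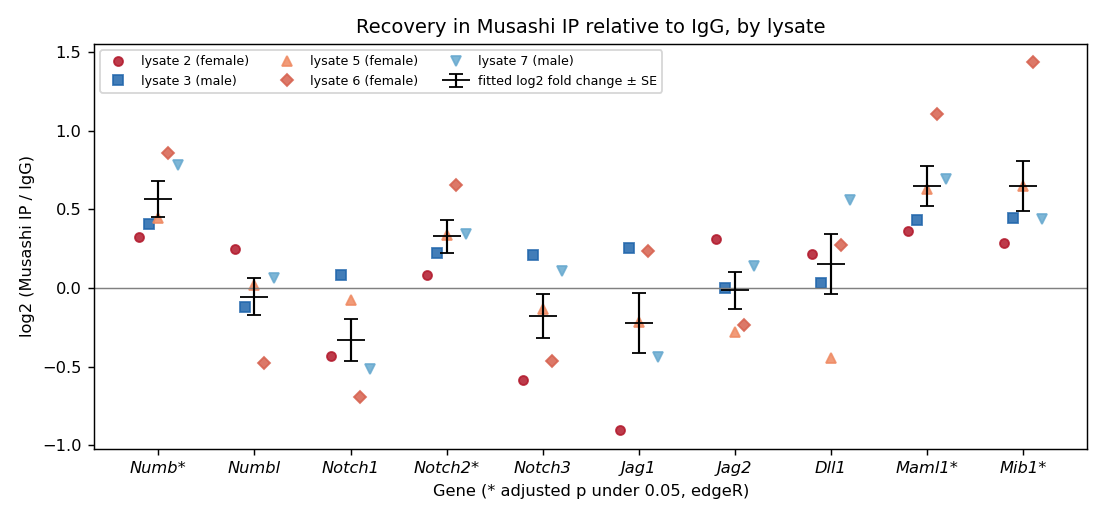
Log2 ratio of Musashi IP to IgG (axis in log2 units) for the 10 genes in each of the 5 lysates, with the fitted log2 fold change ± SE in black and a star where it passed. The points of Numb, Notch2, Maml1 and Mib1 lie above 0 in every lysate, those of lysate 6 are the highest for all 4, and the other 6 genes have points on both sides of 0.

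The ligands showed no difference that passed. Jag1 (ENSMUSG00000027276), at 9.80, 11.9, 7.56, 11.7 and 8.45 CPM in the Musashi IP and 18.6, 9.97, 8.82, 9.86 and 11.5 CPM in IgG, was the higher in the IP in 2 lysates and the lower in 3. Its log2 fold change was −0.22 ± 0.19 (adjusted p = 0.389), and 0.0093 without lysate 2. The highest Jag1 value and the raised endothelial markers were in the IgG library of lysate 2. The Musashi IP of that lysate had the lowest endothelial sum of the IP libraries (74.5 CPM). The cause was not tested. Jag2 (ENSMUSG00000002799) had 54.9, 31.5, 32.5, 34.5 and 24.0 CPM in the IP and 44.2, 31.5, 39.6, 40.7 and 21.8 CPM in IgG, nearly equal on average (log2 −0.015 ± 0.12, adjusted p = 0.933). The difference between these paralogs, Jag1 minus Jag2, was −0.20 ± 0.69 (exact permutation p = 0.625, also 0.625 adjusted), and its sign turned without lysate 2. Dll1 (ENSMUSG00000014773), the Delta-like ligand of the set, was the scarcest member with 22 to 82 counts per library. In lysates 2, 3, 5, 6 and 7 it had 35, 56, 25, 32 and 82 counts in the IP and 32, 44, 29, 22 and 36 counts in IgG, or 4.63 ± 1.88 CPM in the IP and 4.11 ± 1.28 CPM in IgG (log2 0.15 ± 0.19, adjusted p = 0.553). The overlap of the groups is wide, and these low counts limit what could be detected.

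Jag1 carried the densest set of motif matches, 8 in a 3′ UTR of 1568 nt or 5.10 per kilobase. Only 3.47% of the 2189 genes with UTRs of similar length held as many or more. The windows are shown because Jag1 was not higher in the Musashi IP.
Jag1, 51 to 55: cgcggggcttGTAGTttctttaaact
Jag1, 152 to 156: actggcactgGTAGTttctgtggttg
Jag1, 336 to 340: ccttaggatcATAGTtttatttatat
Jag1, 402 to 406: tgacgttcgaGTAGTtctgtatttga
Jag1, 582 to 586: gaatttttgtATAGTtatgtaaataa
Jag1, 710 to 714: aaggtttttgATAGTgttgtaagcat
Jag1, 794 to 798: gtgtttggaaATAGTttctcttgaaa
Jag1, 1471 to 1476: tgtttgttctATTAGTgttatatgaa
Beside the windows of Numb and Maml1 above, the same short words thus stood in UTRs of genes that were and were not higher in the IP. Jag2 held 1 match in 1070 nt, Notch3 held 2 in 1000 nt and Dll1 held 0 in 676 nt.

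**Figure D3:**
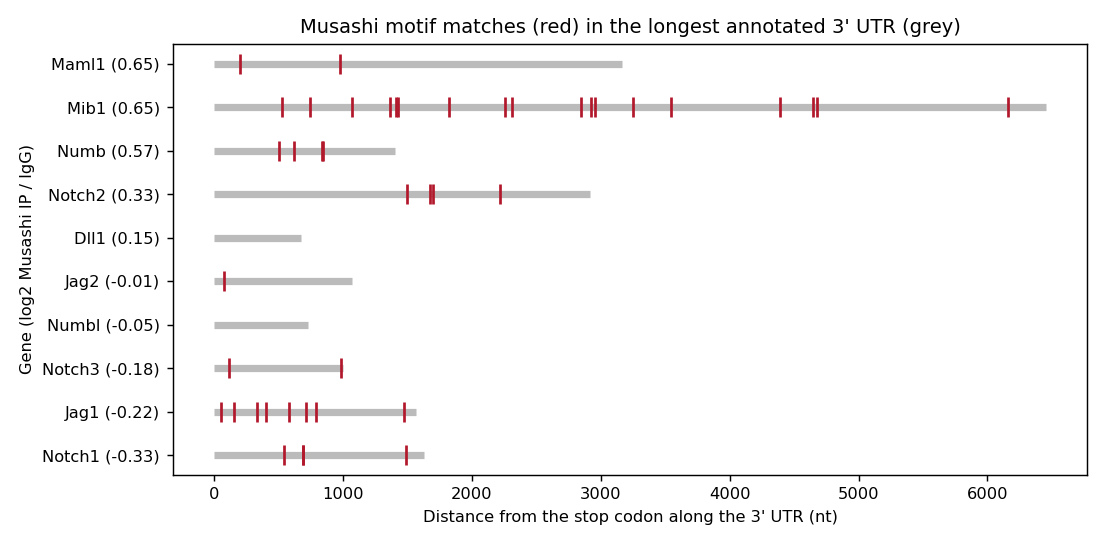
Map to scale of the longest annotated 3′ UTR of each of the 10 genes, with the distance from the stop codon in nt on the horizontal axis and a mark at each motif match. Jag1 holds 8 matches in 1568 nt, whereas Maml1 holds 2 in 3168 nt and Numbl and Dll1 hold 0.

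The length of the 3′ UTR went with recovery across the transcriptome. Of tested protein-coding genes, 4.38% were higher in the IP where the UTR was 100 to 500 nt long, 18.4% at 501 to 1000 nt, 30.8% at 1001 to 2000 nt and 43.2% above 2000 nt. Among the 10 genes, all 3 with a UTR above 2000 nt were higher (Notch2, Maml1 and Mib1), as was 1 of the 4 between 1001 and 2000 nt (Numb, of Numb, Notch1, Jag1 and Jag2) and 0 of the 3 at 1000 nt or less (Numbl, Notch3 and Dll1). Genes higher in the IP had a median UTR of 2076 nt and a median of 1.70 matches per kilobase, against 995 nt and 1.40 per kilobase in the other tested protein-coding genes. The share of genes with at least 1 match, 87.5% of the higher genes and 68.1% of the others, moved with length as well, and the parts of length and motif were not separated. With exon length and GC content corrected, Mib1 (0.56), Maml1 (0.35) and Numb (0.32) still passed, but 3′ UTR length itself was not corrected for.

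The size of the differences depended on the lysate. The log2 ratios in lysates 2, 3, 5, 6 and 7 were 0.28, 0.45, 0.65, 1.43 and 0.44 for Mib1, 0.36, 0.43, 0.63, 1.11 and 0.69 for Maml1, and 0.32, 0.40, 0.45, 0.86 and 0.78 for Numb. Lysate 6 was highest in each case. The median over all genes higher in the IP, which were chosen in these same libraries, was also highest there. It was at log2 ratios of 0.45, 0.51, 0.87, 1.57 and 0.81 in that order of lysates. Over all tested protein-coding genes, lysate 6 had a median of 0.28 and an SD of 0.98. The other lysates had at most 0.11 and 0.62. By rank within a lysate, Numb exceeded between 70.2% and 84.6% of tested protein-coding genes in every lysate, Maml1 between 76.9% and 82.0%, Mib1 between 71.4% and 83.8%, and Notch2 between 52.5% and 66.1%. The share of protein-coding genes that were higher in the IP in all 5 lysates was 31.1%, and 4 of the 10 genes were.

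The genes whose 5 lysate ratios were nearest to those of Numb, by the root-mean-square difference over 10853 genes with at least 8 CPM, were Map1a (0.0477 log2 units), Armcx4 (0.0490), Ttll12 (0.0572), Gabpb2 (0.0659) and Synpo2 (0.0668). In Map1a, which encodes a microtubule-associated protein, the ratios were 0.32, 0.30, 0.46, 0.88 and 0.78 in lysates 2, 3, 5, 6 and 7. The likeness is over 5 points only and is given as a description.

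Levels between genes were compared as CPM per kilobase of exon. Mib1 came first with 35.1 ± 12.0 in the Musashi IP and 21.6 ± 2.29 in IgG, and Dll1 last with 1.10 ± 0.45 in the IP and 0.97 ± 0.30 in IgG (SD, n = 5 each). Numb had 17.95 ± 3.78 in the IP and 12.0 ± 1.15 in IgG, Numbl 10.5 ± 3.95 and 10.8 ± 3.64, Notch2 12.4 ± 3.43 and 9.89 ± 2.94, and Maml1 11.3 ± 2.72 and 7.10 ± 0.55, each with the IP first. Below these came Jag2 (5.09 ± 1.66 in the IP, 5.10 ± 1.29 in IgG), Notch3 (3.73 ± 0.77 and 4.40 ± 1.86), Notch1 (2.69 ± 0.37 and 3.40 ± 0.60) and Jag1 (1.70 ± 0.33 and 2.02 ± 0.67). In the order of the IgG levels, the neighbours Mib1 and Numb, and Jag1 and Dll1, did not overlap in their IgG libraries. The ranges of all other neighbours overlapped, although Maml1 was above Jag2 and Notch1 above Jag1 within each of the 5 IgG libraries. The order depends on the length used: per kilobase of the longest transcript, Notch1 was at 4.04 in the IP and 5.10 in IgG, above Notch3 at 3.76 in the IP and 4.44 in IgG.

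Around the 10 genes, a list of 65 further Notch pathway genes gives the setting, and 62 of them were tested. In the Musashi IP 19 were higher (30.6%, against 25.7% of protein-coding genes), 1 was lower and 42 did not pass, with a median log2 fold change of 0.12. By role, the higher genes were 6 of 14 ubiquitin ligases, 3 of 9 receptor cleavage genes and 3 of 6 glycosylation genes. Among endocytosis partners of Numb they were 2 of 7, among co-repressors 2 of 8 and in the transcription complex 1 of 8. Of the tested genes listed as targets, a label not checked here, 2 of 5 were higher. None of the 5 other receptor and ligand genes tested passed: Notch4 was at −0.31 ± 0.15 (adjusted p = 0.145), Dlk1 at −0.021 ± 0.083 (0.858) and Dner at 0.22 ± 0.11 (0.163).

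Among the enzymes that, like Mib1, ubiquitinate pathway proteins, Neurl1b had 8.73 to 39.1 CPM in the Musashi IP and 4.93 to 7.68 CPM in IgG (log2 1.61 ± 0.29, adjusted p = 0.00690). It and Neurl1a (0.65 ± 0.12, adjusted p = 0.00703) are relatives of the fly ligase neuralized, which acts on ligands. Nedd4, a HECT-type ligase, had 1044 to 2546 CPM in the IP and 721 to 890 CPM in IgG (0.92 ± 0.17, adjusted p = 0.00735), and Dtx1, a deltex ligase, was at 0.87 ± 0.17 (adjusted p = 0.00973). None of these 4 lost its call under any alternative tried.

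Of the receptor cleavage genes, Aph1b, a scaffold subunit of gamma-secretase, had 20.9 to 72.3 CPM in the Musashi IP against 7.95 to 11.2 CPM in IgG (log2 1.95 ± 0.26, adjusted p = 0.00343), although its reads may be shared with its near-identical mouse copy Aph1c. Its relative Aph1a was at 0.63 ± 0.19 (adjusted p = 0.0420). Aph1a lost its call without lysates 5, 6 or 7, in the unpaired fit and with length and GC corrected.

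The glycosylation genes that were higher were Pofut1, which adds O-fucose to Notch repeats (0.48 ± 0.10, adjusted p = 0.0127), Poglut1, which adds O-glucose (0.66 ± 0.15, 0.0146), and Mfng, a fringe enzyme that extends the fucose (0.91 ± 0.24, 0.0233). Among endocytosis partners of Numb, the AP-2 adaptor subunits Ap2a2 (0.72 ± 0.14, adjusted p = 0.00873) and Ap2b1 (0.64 ± 0.16, adjusted p = 0.0236) were higher. Within the nuclear complex, Rbpj was higher (0.49 ± 0.12, adjusted p = 0.0185), with its pseudogenes a possible share of its reads, and Ep300, a histone acetyltransferase, was lower (−0.28 ± 0.08, adjusted p = 0.0352). The co-repressors Ctbp1 (0.60 ± 0.14, adjusted p = 0.0141) and Spen (0.34 ± 0.08, adjusted p = 0.0185) were higher.

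Without lysate 5, Pofut1, Poglut1, Mfng, Ap2b1, Rbpj, Ep300, Ctbp1 and Spen all lost their calls, with adjusted p between 0.0589 for Ctbp1 and 0.119 for Ep300. Without lysate 7, Pofut1, Mfng, Rbpj, Ep300 and Spen did, without lysate 3 Mfng and Spen, and without lysate 2 Ep300. In the unpaired fit Pofut1, Rbpj, Ep300, Ctbp1 and Spen did not pass, and Spen also failed under library totals (adjusted p = 0.175) and with protein-coding genes only (0.0541), and Ep300 with no low-count filter (0.0846). With length and GC corrected, Pofut1 (0.24, adjusted p = 0.0608), Ctbp1 (0.31, 0.0583) and Spen (0.16, 0.155) lost their calls, and 13 genes of the wider list were higher. Ap2a2 kept its call throughout.

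Among genes listed as targets, Hes6, a relative of Hes1 known to counteract it, had 24.5 to 45.5 CPM in the Musashi IP and 8.35 to 13.4 CPM in IgG (1.48 ± 0.20, adjusted p = 0.00373). Heyl was also higher (0.81 ± 0.25, adjusted p = 0.0404), but lost its call without lysate 3, 5, 6 or 7, in the unpaired fit (adjusted p = 0.154) and with length and GC corrected (0.50, adjusted p = 0.106). Without lysate 2 it was at 1.19, and Mfng at 1.23. Hes5, Nrarp and the ligand Dll3 had too few counts to be tested. Markers of stem and progenitor cells, in which Notch genes are known, were also summed. The sums were 71.1 to 131 CPM in IP libraries and 29.3 to 56.8 CPM in IgG libraries. They were higher in the IP in 5 of 5 lysates, as 31.1% of single protein-coding genes were. Of 6 tested markers, 3 were higher (Fstl1, Cdh1 and Sox9), against 25.7% of protein-coding genes. Fstl1 alone had 30.6 to 80.8 CPM in the IP and 7.91 to 18.8 CPM in IgG. It was the largest part of the sum in every IP library, so the sums largely follow this gene. Sox2 (log2 0.55), S100b (0.019) and Cd9 (0.0095) did not pass. Of red cell markers 3 of 4 were lower, where 4.01% of protein-coding genes were. Immune cell markers were mixed, with 2 of 5 lower (Ptprc and Csf1r). Cx3cr1 (log2 0.60), Aif1 (0.079) and Cd68 (−0.25) did not pass. Among endothelial markers 0 of 8 passed, and among mural and fibroblast markers 0 of 8. Both antibodies had portions of the same lysate, so these values are of RNA recovered and not of cell numbers. How far the recovery of pathway genes went with that of these markers was not tested.

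**Figure D4:**
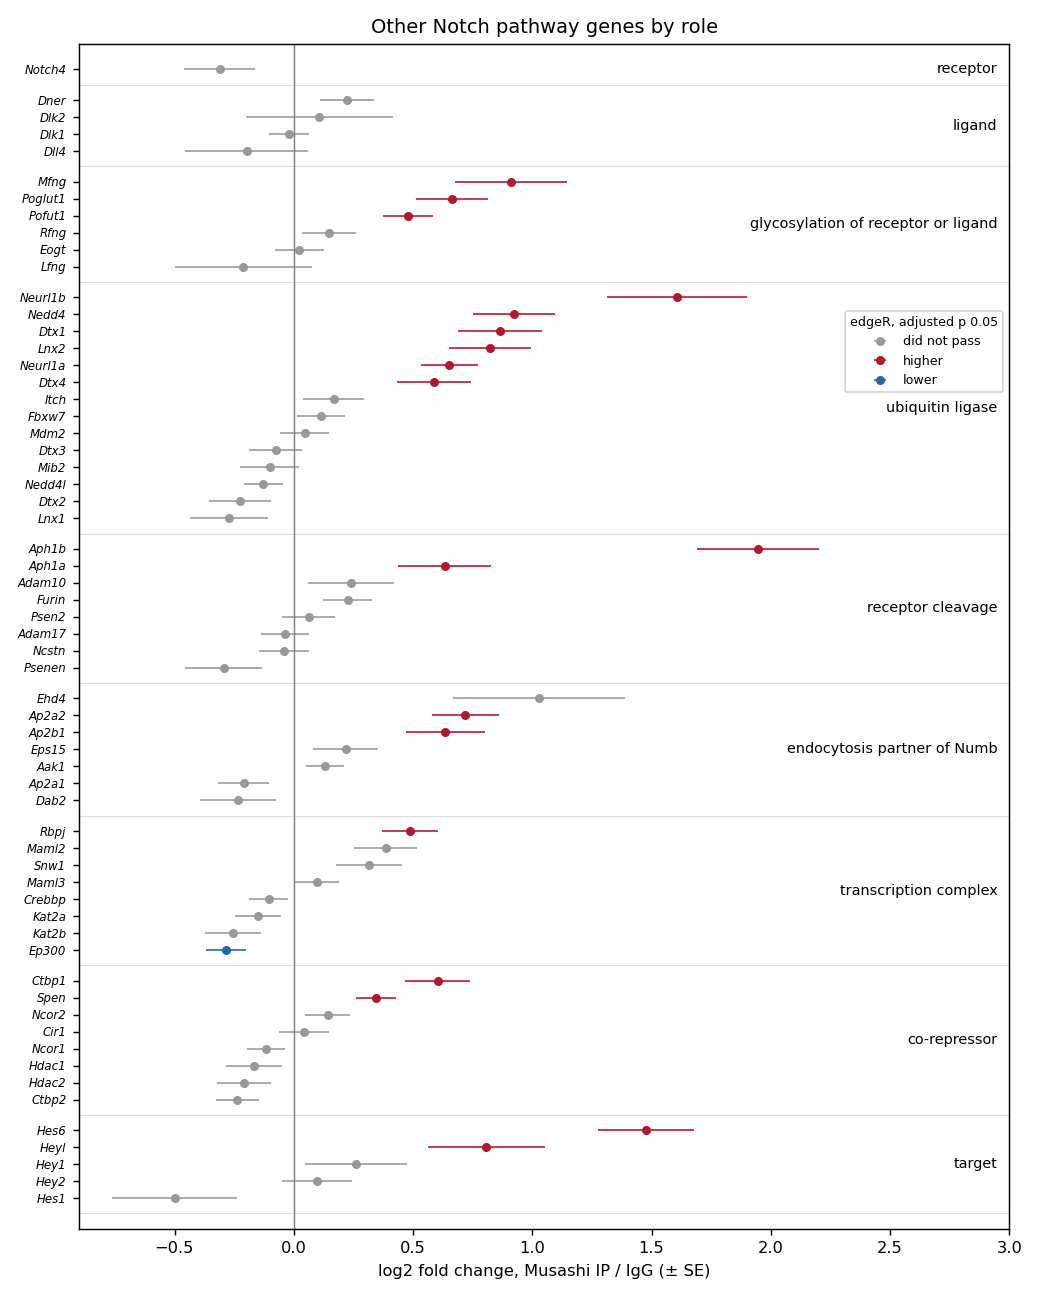
Log2 fold change (Musashi IP over IgG, ± SE) of tested genes of the wider Notch pathway, ordered by role, with 1 gene of the list not shown. Red points passed as higher, the blue point, Ep300, passed as lower, and grey points did not pass.

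Sex was compared next. No difference of the antibody effect between females and males passed for any of the 10 genes (edgeR adjusted p = 1 for each), as for 0% of all genes tested, where 187 had an unadjusted p under 0.05 and DESeq2 called 0. Notch3 came nearest, with mean log2 ratios of −0.39 in females and 0.16 in males and a difference of −0.56 ± 0.24 (unadjusted p = 0.0496 in the same edgeR fit). For Mib1 the mean log2 ratio was 0.79 in females and 0.44 in males, a difference of 0.34 ± 0.33. The antibody effect within each sex came from the same edgeR fit of all 10 libraries. Maml1 (0.70, adjusted p = 0.0392) and Mib1 (0.79, adjusted p = 0.0471) passed for the 3 female lysates. Of all genes, 11.6% were higher there. Within the 2 male lysates 0 of 10 genes and 0% of all genes passed in edgeR (2 of the 10, and 2548 of all genes, had an unadjusted p under 0.05), which is no test of a difference from females.

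The levels of Numbl and Notch2 did differ between the sexes in IgG libraries, in opposite directions. Numbl had 119, 101 and 126 CPM in female IgG libraries and 70.9 and 52.3 CPM in male ones, means of 115 ± 13.1 (SD, n = 3) and 61.6 ± 13.1 CPM (n = 2). Notch2 had 93.5, 80.2 and 78.2 CPM in female IgG libraries and 139 and 143 CPM in male ones, means of 83.9 ± 8.32 and 141 ± 2.61 CPM. For neither gene did the sexes overlap, as for 33.6% of all genes tested. The log2 difference, female minus male, was 0.90 ± 0.19 for Numbl (edgeR adjusted p = 0.0212) and −0.75 ± 0.16 for Notch2 (edgeR adjusted p = 0.0205), where 2.66% of genes were higher in females and 1.84% lower. Numbl lost its call without lysate 3 (adjusted p = 0.0772), 6 (0.0517) or 7 (0.238), and Notch2 without lysate 3 (0.141), 5 (0.0767), 6 (0.0839) or 7 (0.164), with the direction kept each time. Both calls held without lysate 2. Hormone genes moved with sex in the same libraries: of 6 tested, 1 was higher and 2 were lower in females, and Prl, the prolactin gene, had 39113, 15630 and 11997 CPM in female IgG libraries and 1531 and 3056 CPM in male ones. The part of the cell mix in the values of Numbl and Notch2 was not tested. In bulk samples, fewer cells of a type and less RNA per cell cannot be told apart. These libraries hold RNA recovered with control IgG, not input RNA. A difference in that recovery between libraries cannot be told apart from them either.

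In the Musashi IP the same genes stood the same way, without passing and again with no overlap between the sexes, as for 34.7% of all genes. Numbl had 142, 102 and 90.4 CPM in female IP libraries and 65.0 and 54.7 CPM in male ones (0.89 ± 0.28, edgeR adjusted p = 0.147), and Notch2 had 98.9, 101 and 123 CPM in female and 162 and 181 CPM in male IP libraries (−0.70 ± 0.22, edgeR adjusted p = 0.144). Dll1 averaged 3.34 ± 0.763 CPM in female and 6.57 ± 0.700 CPM in male IP libraries (−0.99 ± 0.34, edgeR adjusted p = 0.174). None of the 10 genes passed in the IP in edgeR or DESeq2 (3 of the 10, and 3505 of all 21238 genes tested there, had an unadjusted p under 0.05), where 1.9% of all genes were higher in females and 0.946% lower. The IP and IgG libraries of a lysate come from the same tissue, so these values are not independent of those in IgG.

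**Figure D5:**
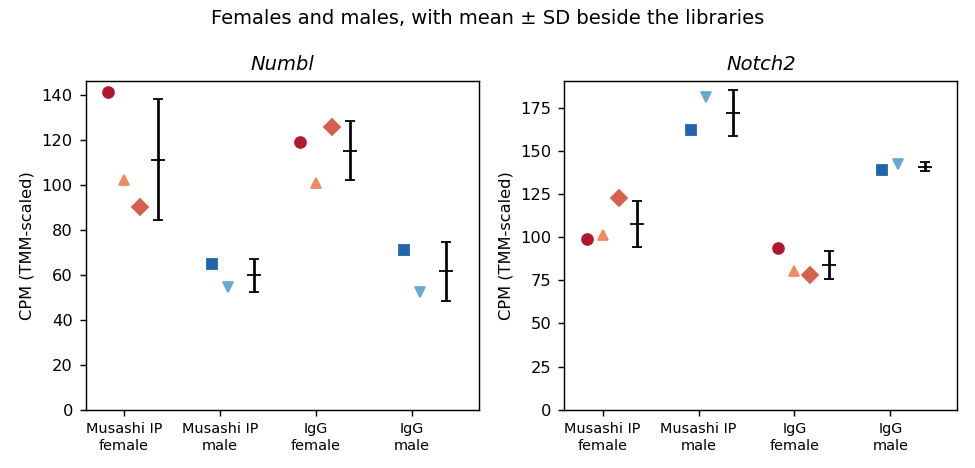
Level of Numbl and of Notch2 (CPM, TMM-scaled, axis from 0) in female and male libraries of the Musashi IP and of IgG, with 1 point per library (circle, triangle and diamond for lysates 2, 5 and 6, square and inverted triangle for lysates 3 and 7) and the mean ± SD as bars. Female and male points do not overlap in either antibody, with females higher for Numbl and lower for Notch2.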

How the data were processed

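RNA recovered with Musashi antibodies or rabbit IgG from 5 pituitary lysates was measured by RNA-seq (TruSeq Stranded Total RNA Gold kit). The authors deposited raw read counts per Ensembl gene. Per the submitters' processing notes, the tools were FastQC 0.11.8, Trimmomatic 0.39 and STAR 2.7.1a, and the build was GRCm39. For the counting program, its strand setting, reads with several matches and the annotation release, nothing is given in the sources used here. Genes with near-identical copies, or that overlap a neighbour, are therefore uncertain. The labels name 6 occasions, 3 per sex, and the male libraries used come from 2 of them.

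The deposited counts were tested with edgeR 4.0.16 under R 4.3.3 (filterByExpr, TMM, glmQLFit, glmQLFTest) and Benjamini-Hochberg adjustment over all genes tested, threshold 0.05. The antibody fit had the lysate as a block, since each lysate was split between the antibodies. The deviations of the libraries of a lysate from their group means correlated at 0.186 (lysate 6) to 0.778 (lysate 7). The fit across antibodies had 4 residual degrees of freedom and the sex difference 3. Log2 ratios per lysate used TMM-scaled CPM with a prior count of 2. Alternatives used DESeq2 1.42.0, limma 3.58.1 (voom), other scalings and filters, a spline in exon length and GC content, and each lysate left out. The edgeR steps were tested on simulated data. The highest correlation of log CPM between libraries was 0.982, so none was counted as a duplicate. Nothing says that lysates came from separate cohorts beyond the separate occasions. Without molecular identifiers, counts are not independent molecules.

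Symbols (52135 IDs, 94.1%), exon lengths and 3′ UTRs came from GENCODE M21 on GRCm38, an older build than the authors', and coordinates are left out. Motif matches are those in a gene's longest annotated 3′ UTR, if it had at least 100 nt. Genes were named by rule: all 10 members; of the wider list, up to 4 per role by smallest adjusted p, or the 2 of highest CPM where none passed; and the 5 genes most like Numb. Members and lists were chosen with earlier results of these data known. The values of 1 gene of the wider list are not reported here, although it is in the counts over that list.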

Additional observations from a re-analysis of the deposited data

Results flagged for a closer look

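Single libraries were checked against the rest of their group with Dixon's outlier test. Over 30 checks (10 genes, with CPM in the Musashi IP, CPM in IgG and the log2 ratio), 3 values stood apart. Chance alone flags about 1 in 20 of such checks. The checks are not independent, since each ratio is made of CPM values that were also checked. Maml1 had 88.4 CPM in the Musashi IP of lysate 6, against 53.2 to 63.2 CPM in the other IP libraries. Maml1 had 34.0 CPM in the IgG library of lysate 7, against 39.4 to 41.4 CPM in the other IgG libraries. Jag1 had 18.6 CPM in the IgG library of lysate 2, against 8.82 to 11.5 CPM in the other IgG libraries.

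The log2 ratio of Notch3 was below 0 in all 3 female lysates (−0.58, −0.13 and −0.46) and above 0 in both male ones (0.21 and 0.11). The difference, female minus male, was −0.56 ± 0.24, and it did not pass in edgeR's test of the difference itself (adjusted p = 1).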

How the results depend on the processing

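With 4 genes higher, the count over the 10 genes ran from 2 to 4 when a lysate was left out, at 2 without lysate 5 or without lysate 7. The count of lower genes, 0, was 1 under library totals, 1 under the 2 CPM filter and 2 after the length and GC correction, and 0 to 1 with a lysate left out (1 without lysate 3). Notch2 lost its call under library totals (adjusted p = 0.185), DESeq2 size factors (0.0617), DESeq2 (0.0887), a 2 CPM minimum (0.0804), a fit of protein-coding genes (0.0617), no block (0.379), the length and GC correction (0.438), and without lysates 3 (0.130), 5 (0.144) or 7 (0.196). Without the lysate block, an unpaired fit gave log2 values of 0.58 for Numb (adjusted p = 0.0274), 0.67 for Maml1 (0.0156) and 0.70 for Mib1 (0.0392). Numb was at 0.32 and Mib1 at 0.56 after the length and GC correction, and both still passed.

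Of the wider list, the 19 higher genes became 12 without the block, 13 after the length and GC correction and 8 to 23 with a lysate left out (8 without lysate 5, 12 without lysate 7). The 1 lower gene became 4 under library totals, 0 with no filter, 3 under the 2 CPM filter, 4 with protein-coding genes only, 0 without the block, 12 after the length and GC correction and 0 to 3 with a lysate left out. Over all genes, 2407 were higher without the block and 1676 to 4651 with a lysate left out (1676 without lysate 5, 2288 without lysate 7). Lower genes numbered 4068 under library totals, 3214 under the 2 CPM filter, 176 without the block, 3170 after the length and GC correction and 187 to 2101 with a lysate left out (187 without lysate 5, 597 without lysate 7).

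Within IgG, the counts of genes higher and of genes lower in females each ran from 0 to 1. In the Musashi IP, genes higher in females ran from 0 to 1 (Numbl without lysate 6, adjusted p = 0.0442), and 1 gene, Notch2, was lower in females under library totals (adjusted p = 0.0493). The sign turned only in values that did not pass: Dll1 was at −0.016 under library totals and −0.13 after the length and GC correction. With a lysate left out Dll1 ran from −0.041 to 0.29, Numbl from −0.15 to 0.056, Jag1 from −0.43 to 0.0093, Jag2 from −0.12 to 0.053, and Jag1 minus Jag2 from −0.37 to 0.055. The cause of these changes was not tested. Depth limits Dll1, at 22 to 82 counts per library.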
